A study of Mus musculus with 6 samples.

Results

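Cholesterol genes were examined in RNA of mouse bone marrow on 6 single-colour Affymetrix arrays, 3 from wild type and 3 from diabetic males of 10 weeks. The genes were chosen by symbol, 31 in all, with 21 for synthesis and uptake and 10 for efflux and transport. A probe set with exactly 1 symbol was found for 28 of them, 20 and 8, among 19938 genes so represented in the series, and Acat2, Nr1h2 and Soat1 were not analysed here. All 28 passed the filter on mean log2 signal that left 11940 genes for testing. Cyp51 lay just inside that cut of 7.52, with a wild type mean of 7.62 and a diabetic mean of 7.42, so it passed through its wild type values.

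The labels name the strain as BKS.Cg with Leprdb/JNju and mark the wild type animals +/+ and the diabetic animals -/-. These marks stand inside the strain name, and which allele they refer to is not stated. Loss of the leptin receptor in the db mouse affects the whole body, and obesity and raised blood glucose develop together, so the label "diabetic" covers all of these. Cells were flushed from the shafts of femurs and tibiae, received no further treatment and no sorting is given, so that each array read a mixture of cells. The labels do not say whether an array held 1 animal or a pool, and p-values then measure only the spread between these samples. In such bulk RNA, fewer cells of a type and less RNA per cell cannot be told apart.

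A cell covers its need for cholesterol in 2 ways, by making it from acetyl-CoA through mevalonate, squalene and lanosterol, and by taking it up in lipoproteins. When membranes run low in sterol, SCAP carries the precursor of the transcription factor SREBP2 out of the endoplasmic reticulum, where INSIG proteins otherwise hold it, and the released factor switches on nearly all enzymes of synthesis. When sterol is plentiful, oxidised cholesterol activates the nuclear receptors LXR alpha and LXR beta, which switch on the export pumps ABCA1 and ABCG1, apolipoprotein E and the ligase that degrades the LDL receptor. In marrow the efflux arm is known for limiting the growth of blood stem and progenitor cells and for lipid export by macrophages.

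Marrow genes were high in both groups. The list of 10 late neutrophil genes had mean log2 signals from 13.25 to 13.42 over the 6 arrays, and that of 10 erythroid genes from 11.96 to 12.51. The median signal over all probe sets ran from 7.67 to 7.73. Wild type replicate 3 stood apart from the other arrays in some measures. It held the highest value of the 6 arrays for 25.2% of all genes tested, against 10.7% to 17.3% for the others. It held the lowest value for 23.9%, close to the 22.7% of wild type replicate 1. It had the highest erythroid and megakaryocyte lists. Its B cell precursor list was the lowest, at -0.45, with diabetic replicate 3 near it at -0.37. Its array weight, an estimate of how closely an array follows its group, was 0.368, the lowest of the 6. Changes of member genes that wild type replicate 3 moves by more than 1.5 times are therefore given with and without it.

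The proximal promoters of the synthesis genes had a shared feature that the choice of genes did not use. SREBP2 binds sterol regulatory elements together with the factor NF-Y, which recognises the CCAAT box. Windows from RefSeq on GRCm38.p6, covering 250 bases before to 50 bases after a gene's start, were found for 17 of the 21 synthesis genes and 7 of the 10 efflux genes, including genes with no probe set here. CCAAT was searched on both strands. It was present in 15 of the 17 synthesis genes, or 88.2%, in 3 of the 7 efflux genes, and in 42.0% of the 9588 tested genes that had a window. Scap and Acat2 were the 2 synthesis genes with no match. The GC box GGGCGG was present in 16 of the 17 synthesis genes, 4 of the 7 efflux genes and 67.3% of the tested genes. The sterol regulatory element core, searched as TCACNCCAC on both strands, was present in Hmgcs1 alone among the synthesis genes, in 0 of the 7 efflux genes and in 1.45% of the tested genes. A direct repeat of AGGTCA spaced by 4 bases, the LXR site in its strict form, was in none of the member windows and in 0 of the 9588 tested genes. With 0 matches there, the LXR search could not tell the lists apart. The sterol element and LXR searches took exact letters only, so a gene with no match may still hold a site with other letters. Some genes have more than 1 window, and a match in any window counted.

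The 200 bases before the start are shown for the pathway's transcription factor, for 3 enzymes that were high on wild type replicate 3, and for an efflux pump as a contrast. Capitals mark CCAAT or its reverse complement ATTGG, and in Hmgcs1 also the sterol regulatory element core, which begins 137 bases before the start. Each is given 5′ to 3′ on the strand of its gene.
Srebf2, chr15:82147069-82147268, plus strand: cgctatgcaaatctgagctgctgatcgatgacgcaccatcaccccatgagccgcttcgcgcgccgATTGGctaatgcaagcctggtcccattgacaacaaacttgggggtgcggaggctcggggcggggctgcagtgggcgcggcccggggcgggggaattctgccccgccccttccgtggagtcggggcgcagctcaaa
Idi1, chr13:8885406-8885605, plus strand: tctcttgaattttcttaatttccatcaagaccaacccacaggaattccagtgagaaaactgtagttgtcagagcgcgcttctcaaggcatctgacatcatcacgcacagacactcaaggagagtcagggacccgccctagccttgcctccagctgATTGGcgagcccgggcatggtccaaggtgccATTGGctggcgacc
Hmgcs1, chr13:119690151-119690350, plus strand: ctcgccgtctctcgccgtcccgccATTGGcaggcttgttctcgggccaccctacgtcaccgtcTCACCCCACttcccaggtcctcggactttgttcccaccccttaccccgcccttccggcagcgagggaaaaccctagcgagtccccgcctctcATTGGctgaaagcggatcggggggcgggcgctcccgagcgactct
Nsdhl, chrX:72918321-72918520, plus strand: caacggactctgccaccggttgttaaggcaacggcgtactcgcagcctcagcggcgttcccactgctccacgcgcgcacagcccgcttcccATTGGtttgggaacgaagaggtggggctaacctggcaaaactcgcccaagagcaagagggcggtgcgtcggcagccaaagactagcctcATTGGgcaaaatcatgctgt
Abca1, chr4:53159896-53160095, minus strand: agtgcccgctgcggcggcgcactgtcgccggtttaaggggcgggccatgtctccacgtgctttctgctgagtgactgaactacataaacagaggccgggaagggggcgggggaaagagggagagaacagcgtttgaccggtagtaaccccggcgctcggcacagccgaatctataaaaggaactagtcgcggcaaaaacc
In these stretches Srebf2 held 1 CCAAT match, Idi1, Hmgcs1 and Nsdhl held 2 each, and Abca1 held 0. A match is a description of the letters, any site with other letters is left unmarked, and binding was not measured.

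The comparison asked whether synthesis and uptake genes and efflux genes differed between diabetic and wild type marrow, and whether the arms moved in opposite directions. Synthesis genes were on average lower in diabetic marrow and the efflux pumps and apolipoprotein E higher, by small amounts. By limma, none of the 28 genes had a Benjamini-Hochberg adjusted p under 0.05, which 0.410% of all genes tested had. The smallest adjusted p was 0.546, that of Apoe. At an unadjusted p under 0.05 in limma, 5 of the 20 synthesis genes were lower (Idi1, Hsd17b7, Fdps, Srebf2 and Lss) and 0 were higher, against 3.17% and 3.99% of all genes tested. Of the 8 efflux genes, Abca1 and Apoe were higher and Npc2 was lower by that measure.

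The synthesis genes had log2 changes from -0.61 to 0.0030, diabetic minus wild type, with a median of -0.15. Of the 20, 19 had a log2 change below 0, compared with 47.6% of all genes tested, whose median was 0.0047. The 3 diabetic values lay below all 3 wild type values for 8 of the 20, against 5.38% of all genes, and above them for 0, against 6.99%. The 8 were Idi1, Hsd17b7, Srebf2, Lss, Mvk, Mvd, Nsdhl and Tm7sf2. These genes are read from the same 6 RNA samples and do not vary independently of each other.

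**Figure D1:**
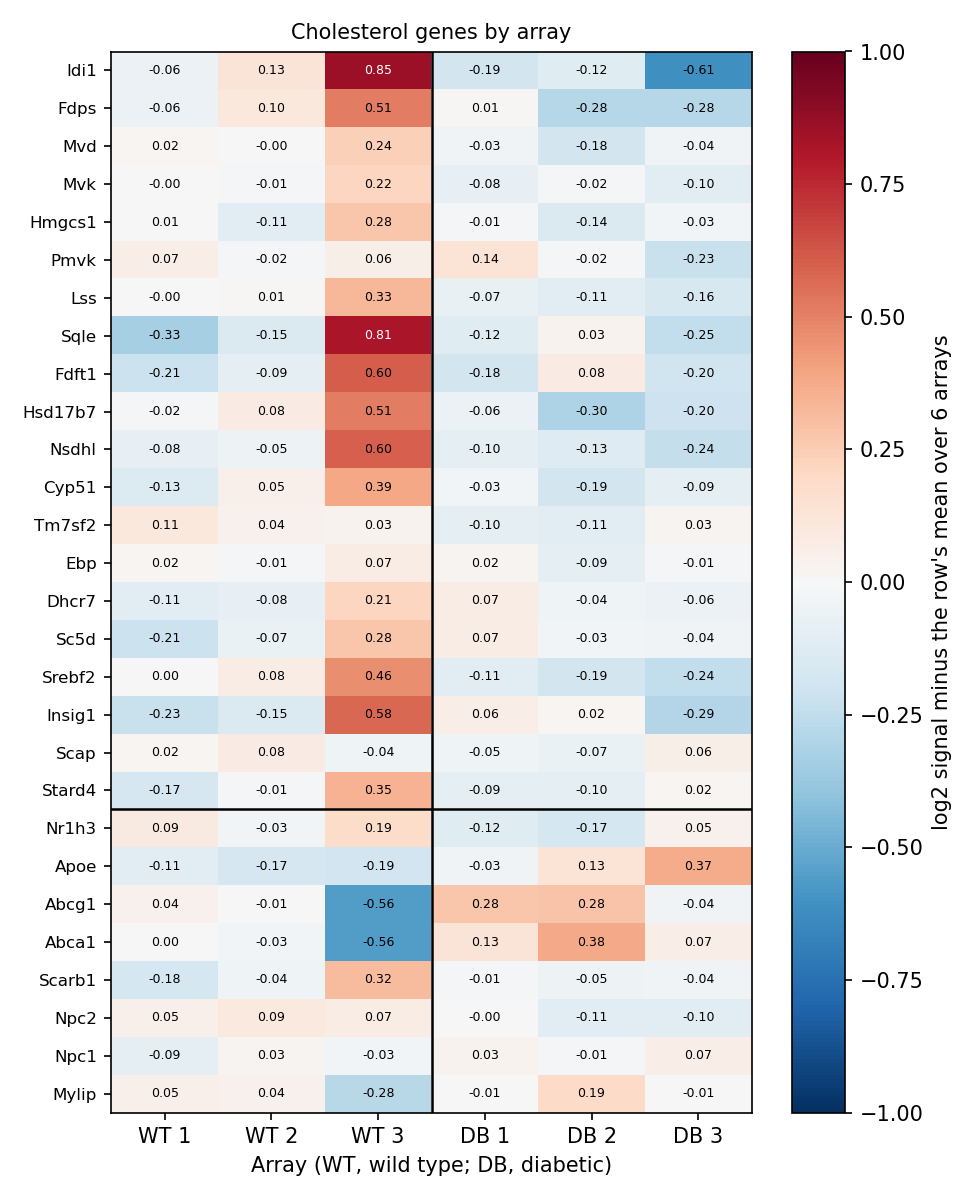
Log2 signal of the 28 cholesterol genes on each array after subtraction of the gene's own mean over the 6 arrays, with synthesis and uptake genes above the horizontal line and efflux and transport genes below it. Wild type replicate 3 is red for most synthesis genes, being the highest array for 17 of 20, and blue for Abca1, Abcg1 and Mylip.

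Much of the difference came from a single wild type array. Wild type replicate 3 held the highest value for 17 of the 20 synthesis genes, where it did so for 25.2% of all genes tested, and the lowest value for 0 of them. The exceptions were Pmvk, Scap and Tm7sf2. Averaged over the 20 genes, with each gene set against its own mean over the 6 arrays, wild type replicate 3 stood at 0.37 on the log2 scale. Wild type replicates 1 and 2 stood at -0.07 and -0.0084, and diabetic replicates 1, 2 and 3 at -0.04, -0.10 and -0.15. Wild type replicate 1 thus lay within the range of the diabetic arrays, and wild type replicate 2 lay just above it.

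The efflux genes did not move as a group on that array, which was the lowest for 4 of the 8 and the highest for 2. Their mean deviation was -0.02, -0.01 and -0.13 on wild type replicates 1, 2 and 3 and 0.03, 0.08 and 0.05 on diabetic replicates 1, 2 and 3, so that all diabetic arrays lay above all wild type arrays. The shift of the synthesis list was -0.19 ± 0.14 and that of the efflux list 0.11 ± 0.04 (SE over arrays, n = 3 per group). The synthesis list minus the efflux list was -0.05, 0.0043 and 0.50 in wild type and -0.08, -0.18 and -0.19 in diabetic marrow, a shift of -0.30 ± 0.18. Diabetic values of this difference all lay below the wild type values, with diabetic replicate 1 close to wild type replicate 1.

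**Figure D2:**
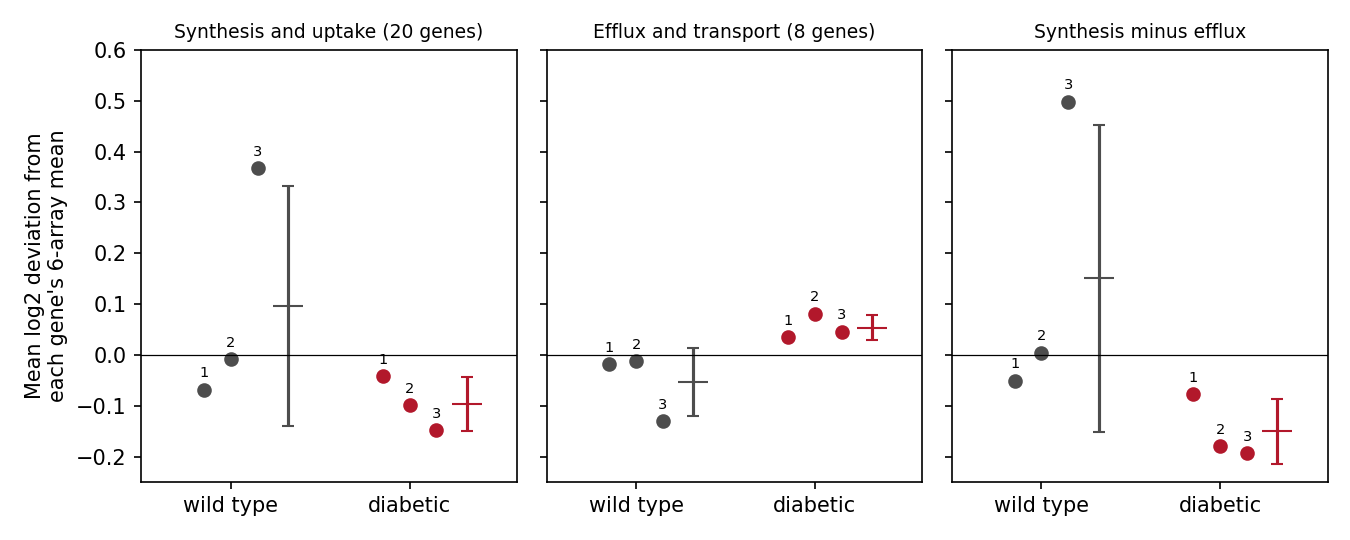
Mean log2 deviation from each gene's 6-array mean for the synthesis list, the efflux list and their difference, with 1 point per array labelled by its replicate number and the group mean with its SD (n = 3) to the right. Wild type replicate 3, at 0.37 in the first panel and -0.13 in the second, lies away from the other wild type arrays, which lie near the diabetic ones.

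Without wild type replicate 3 the synthesis shift was -0.06 ± 0.05 and the efflux shift 0.07 ± 0.02 (SE), and the difference was -0.13 ± 0.05. Of the 20 synthesis genes, 14 then had a log2 change below 0, with a median of -0.06. Removing an array cannot undo a separation, so the 8 genes stayed separate by construction, and 0 others joined them, where 12.7% of all genes had all diabetic values below the 2 remaining wild type values. Dhcr7 and Sc5d had all diabetic values above them, against 14.6%. The smallest adjusted p over the 28 genes without that array was 0.317, that of Srebf2, by the same limma fit.

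Enzymes of the mevalonate steps, which build the isoprenoid units, were all lower in mean, 6 of 6. Their joint shift was -0.25 ± 0.13, and -0.13 ± 0.07 without wild type replicate 3 (SE). Idi1, the isomerase that interconverts the pair of isoprenoid building blocks, had log2 signals of 8.38, 8.57 and 9.29 in wild type and 8.25, 8.32 and 7.83 in diabetic marrow. The diabetic values were all lower, and the extremes lay on the third array of each group. Its log2 change was -0.61 ± 0.23 (SE), or 1.53-fold lower, with a 95% confidence interval of -1.16 to -0.07 and an adjusted p of 0.627. Without wild type replicate 3 it was -0.34 ± 0.15. A second probe set of Idi1 read 8.26, 8.53 and 9.14 in wild type and 8.26, 8.34 and 7.79 in diabetic marrow. Its extremes lay on the same arrays, but diabetic replicate 2 lay above wild type replicate 1, so the groups overlapped on that set.

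Fdps, which makes the farnesyl diphosphate used for both sterols and protein prenylation, read 9.71, 9.87 and 10.28 in wild type and 9.78, 9.48 and 9.48 in diabetic marrow. Diabetic replicate 1 lay within the wild type range. The log2 change of Fdps was -0.37 ± 0.15, and -0.21 ± 0.11 without wild type replicate 3. The kinase and decarboxylase genes Mvk and Mvd differed less, at -0.14 ± 0.08 and -0.17 ± 0.08, with no overlap of the groups. They were at -0.06 ± 0.06 and -0.09 ± 0.07 without wild type replicate 3. Hmgcs1, the synthase that forms HMG-CoA, was at -0.12 ± 0.10 and at -0.0099 ± 0.07 without wild type replicate 3. Pmvk was at -0.07 ± 0.09 and had its highest value on diabetic replicate 1.

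The 3 genes from squalene to lanosterol had the largest joint deviation on wild type replicate 3, at 0.58, with -0.18 and -0.08 on the other 2 wild type arrays and then -0.13, 0.0025 and -0.20 on the diabetic ones. Sqle, the oxygen-dependent squalene epoxidase and a control point of the pathway, read 8.12, 8.31 and 9.27 in wild type and 8.33, 8.49 and 8.21 in diabetic marrow. Its change of -0.22 ± 0.27 turned to 0.13 ± 0.10 without wild type replicate 3. Fdft1, squalene synthase, turned likewise from -0.20 ± 0.20 to 0.05 ± 0.10, and its second probe set had -0.17 on all arrays. Lss, which closes the ring to form lanosterol, read 7.90, 7.92 and 8.24 in wild type and 7.83, 7.80 and 7.75 in diabetic marrow. For Lss the groups did not overlap, and its change was -0.23 ± 0.10, or -0.12 ± 0.06 without that array.

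Of the 7 enzymes that turn lanosterol into cholesterol, 6 were lower in mean, with a joint shift of -0.15 ± 0.12, and of -0.04 ± 0.05 without wild type replicate 3. Hsd17b7, the 3-ketosteroid reductase of the C4 demethylation, read 8.58, 8.68 and 9.11 in wild type and 8.54, 8.30 and 8.40 in diabetic marrow. Every diabetic value was below every wild type value, and the change was -0.38 ± 0.14, or 1.30-fold lower, with a limma p of 0.604 once adjusted by Benjamini-Hochberg. The change was -0.22 ± 0.09 without wild type replicate 3. Nsdhl, which acts in the same demethylation, read 9.18, 9.21 and 9.86 in wild type and 9.16, 9.13 and 9.02 in diabetic marrow. Wild type replicates 1 and 2 were only slightly above the diabetic ones, and the change of -0.31 ± 0.17 was -0.09 ± 0.07 without wild type replicate 3. Cyp51, the lanosterol demethylase, was at -0.20 ± 0.13, and at -0.06 ± 0.08 without that array, and Tm7sf2, a sterol C14 reductase, at -0.12 ± 0.06. Tm7sf2 was one of the few whose change was as large without that array, at -0.13 ± 0.07. Ebp, Dhcr7 and Sc5d, which carry out late steps on the sterol rings, were at -0.06 ± 0.06, -0.02 ± 0.10 and 0.0030 ± 0.12. Without wild type replicate 3 they were at -0.03 ± 0.07, 0.09 ± 0.07 and 0.14 ± 0.07.

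Among the sterol-sensing genes, Srebf2, which encodes SREBP2, read 10.27, 10.35 and 10.73 in wild type and 10.16, 10.09 and 10.03 in diabetic marrow. The groups did not overlap, and the diabetic values lay within 0.07 of their mean (SD). The change was -0.36 ± 0.12 (SE), or 1.28-fold lower, with a 95% confidence interval of -0.63 to -0.09 and a limma p of 0.556 once adjusted by Benjamini-Hochberg. Without wild type replicate 3 the change was -0.22 ± 0.07. Insig1, itself a target of SREBP2 that feeds back on the pathway, read 8.84, 8.92 and 9.64 in wild type and 9.13, 9.09 and 8.78 in diabetic marrow. The groups overlapped, and the change of -0.14 ± 0.21 turned to 0.12 ± 0.11 without wild type replicate 3. Scap, the escort of SREBP2, was at -0.04 ± 0.06, was below its own mean on wild type replicate 3 and was at -0.07 ± 0.07 without it. Stard4, a carrier of cholesterol between membranes, was at -0.11 ± 0.12 and at 0.03 ± 0.08 without that array.

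**Figure D3:**
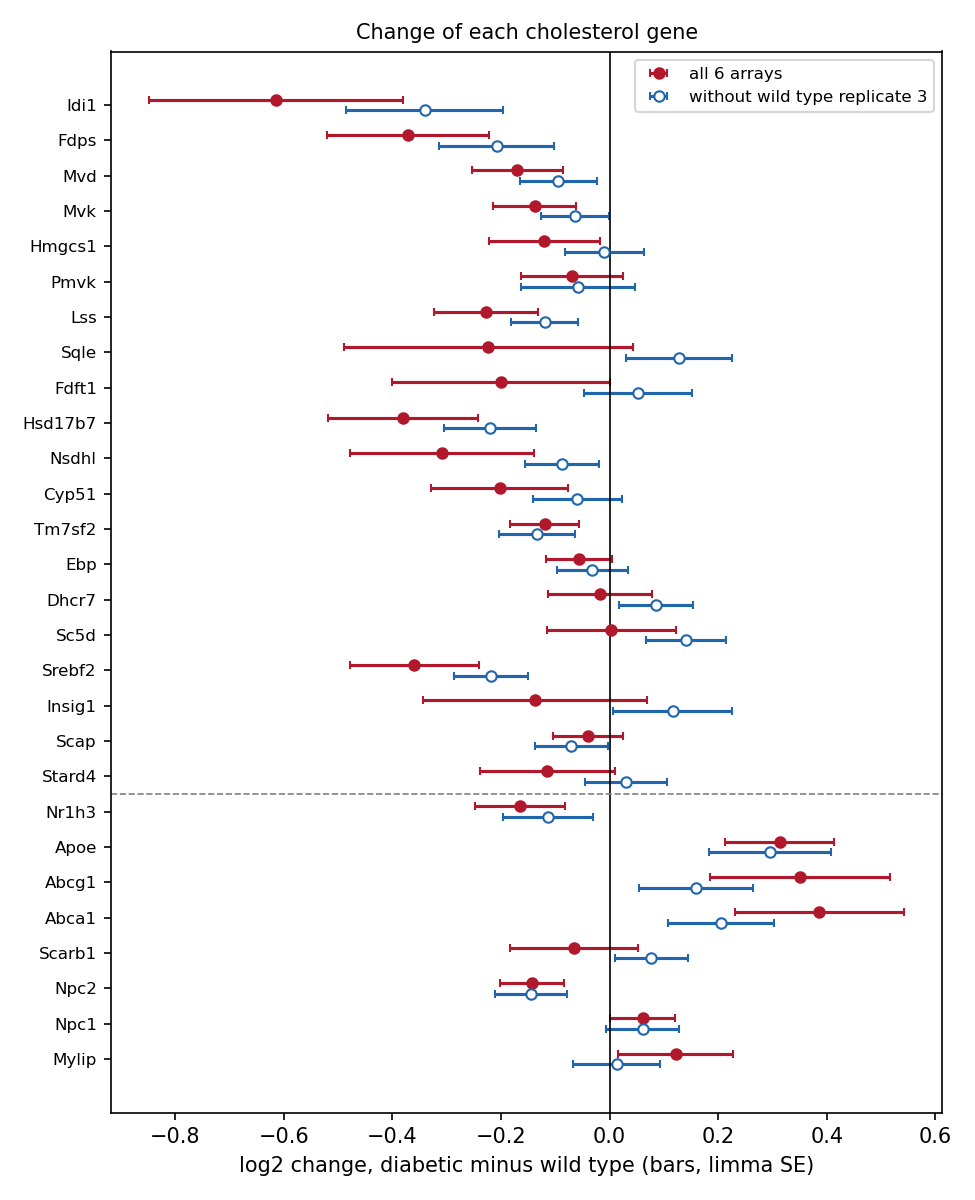
Log2 change, diabetic minus wild type, of each of the 28 genes with its limma standard error, from all 6 arrays (filled) and without wild type replicate 3 (open). Most synthesis genes, above the dashed line, lie nearer 0 or past it without that array, for example Sqle at -0.22 and 0.13, with Tm7sf2, Scap and Sc5d as exceptions, while Apoe stays at 0.31 and 0.30.

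On the efflux side, the 2 export pumps and their lipid acceptor were higher in mean in diabetic marrow, with a joint shift of 0.35 ± 0.14, and of 0.22 ± 0.06 without wild type replicate 3 (SE). Abca1, which loads cholesterol onto lipid-poor apolipoproteins, read 9.35, 9.31 and 8.79 in wild type and 9.47, 9.72 and 9.41 in diabetic marrow. All diabetic values were higher, and wild type replicate 3 was the lowest array. The change was 0.39 ± 0.16, or 1.31-fold higher, with a 95% confidence interval of 0.02 to 0.75 and a limma p of 0.658 once adjusted by Benjamini-Hochberg. It was 0.21 ± 0.10 without wild type replicate 3.

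Abcg1, which passes cholesterol to mature HDL, read 10.12, 10.07 and 9.52 in wild type and 10.36, 10.36 and 10.04 in diabetic marrow. Diabetic replicate 3 lay just below wild type replicates 1 and 2, so the groups overlapped. Its change was 0.35 ± 0.17, and 0.16 ± 0.10 without wild type replicate 3. Apoe, a lipoprotein component that macrophages secrete, read 11.20, 11.14 and 11.11 in wild type and 11.27, 11.44 and 11.68 in diabetic marrow. Here the wild type arrays lay close together (SD 0.04), wild type replicate 3 did not stand apart, and the diabetic arrays were more widely spread (SD 0.20). The change of Apoe was 0.31 ± 0.10, or 1.24-fold higher, with a 95% confidence interval of 0.08 to 0.55, and it was 0.30 ± 0.11 without wild type replicate 3.

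Apoe and the pumps are abundant in macrophages, so the macrophage list was set beside them. Of its 15 genes 13 were lower in diabetic marrow, with a median change of -0.32, and the mean level of the list ran from 9.19 to 9.34 in wild type and from 8.99 to 9.10 in diabetic marrow. C1qb and Axl were at -0.62 ± 0.12 and -0.53 ± 0.09, and Adgre1 and Cd163 were the 2 higher ones, at 0.27 ± 0.14 and 0.34 ± 0.06. Apoe and Abca1 thus had the opposite sign to most of that list. The list of 6 monocyte genes had a median change of 0.08, with 5 of 6 higher. The part of either cell type in the efflux values was not tested.

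The other members of the efflux list had smaller changes than the pumps and Apoe, from -0.17 to 0.12. Nr1h3, Npc2 and Scarb1 were lower in mean in diabetic marrow, and Npc1 and Mylip were higher. Nr1h3, which encodes LXR alpha, read 7.89, 7.78 and 7.99 in wild type and 7.69, 7.63 and 7.85 in diabetic marrow, with overlap and a change of -0.17 ± 0.08. Npc2, which hands cholesterol to the lysosomal membrane protein encoded by Npc1, read 10.62, 10.67 and 10.64 in wild type and 10.57, 10.46 and 10.47 in diabetic marrow. The groups of Npc2 did not overlap, and its change of -0.14 ± 0.06 was the same without wild type replicate 3. Npc1 was at 0.06 ± 0.06. Mylip, the ubiquitin ligase IDOL that degrades the LDL receptor, read 10.84, 10.83 and 10.51 in wild type and 10.78, 10.98 and 10.78 in diabetic marrow, and its change of 0.12 ± 0.11 was 0.01 without wild type replicate 3. Scarb1, an HDL receptor that can move cholesterol in either direction, had its highest value, 10.93, on wild type replicate 3 and 10.43 to 10.60 elsewhere. Its change was -0.07 ± 0.12, and 0.08 ± 0.07 without that array.

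Scarb1 and Nr1h3 were thus highest on wild type replicate 3 with the synthesis genes, while Abca1, Abcg1, Apoe and Mylip, which are known LXR targets, were lowest there. For Apoe the margin was small, with 11.11 on wild type replicate 3 and 11.14 on wild type replicate 2. Of all genes tested, 23.9% had their lowest value on that array. The 4 targets were grouped after their values were seen. Other known LXR targets were split. Pltp and Lpcat3, an enzyme that remodels membrane phospholipids, had their highest values on that array, 9.83 and 11.84. Scd1, a fatty acid desaturase that LXR also drives, had its lowest value there, 10.44.

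Other genes of the pathway were read from a list of 19 on the synthesis side, 12 with a probe set, and of 23 on the efflux side, 21 with a probe set. None had a Benjamini-Hochberg adjusted p under 0.05 by limma. On the synthesis side 6 were lower and 6 higher, with a median of 0.0041. Of the 4 with the smallest p, Msmo1, the C4 methyl oxidase of the pathway, and Tmem97, a sterol-responsive membrane protein, were at -0.26 ± 0.11 and -0.25 ± 0.11. Both had their highest value on wild type replicate 3, 9.16 and 10.53, and were at -0.14 ± 0.07 and -0.12 ± 0.06 without it. Gramd1b, which carries cholesterol from the plasma membrane, was at 0.21 ± 0.07, with all diabetic values above the wild type ones, and Lbr, a sterol C14 reductase of the nuclear envelope, at 0.10 ± 0.07.

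On the efflux side 10 were lower and 11 higher, with a median of 0.05. That list is not of export genes alone, since it also holds receptors for lipid uptake, Lrp1 and Msr1 among them. Pltp, the phospholipid transfer protein and an LXR target, read 9.44, 9.77 and 9.83 in wild type and 9.06, 9.21 and 9.11 in diabetic marrow. The groups were separate, and the change of -0.55 ± 0.11, or 1.46-fold lower, had a limma p of 0.132 once adjusted by Benjamini-Hochberg. Without wild type replicate 1 the change was -0.67 ± 0.08 and the adjusted p 0.0122, and over all alternatives the adjusted p ran from 0.0112, with array weights, to 0.565. Pltp therefore had the opposite sign to Abca1 and Abcg1. Lrp1, a large endocytic receptor that takes up apolipoprotein E particles, was at 0.27 ± 0.08, Abca7, a relative of Abca1, at 0.20 ± 0.07, and the scavenger receptor Msr1 at 0.20 ± 0.07, each with all diabetic values above the wild type ones.

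Fatty acid synthesis is the other branch under the SREBP factors. Of 12 genes listed for it, 10 had a log2 change below 0 and 0 passed, with a median of -0.06 and a shift of -0.09 ± 0.04. The mean of the list did not single out wild type replicate 3, being 0.03 there, compared with 0.03 and 0.07 on wild type replicates 1 and 2. That mean includes Scd1, which was low on wild type replicate 3, at 10.44 against 11.32 to 11.61 on the other arrays. Wild type replicate 3 was highest for 5 of the 12 and lowest for 1, against 25.2% and 23.9% of all genes tested. Srebf1, which encodes SREBP1, was at -0.0038 ± 0.06 beside the -0.36 ± 0.12 of Srebf2, and this difference between the 2 genes was not tested.

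**Figure D4:**
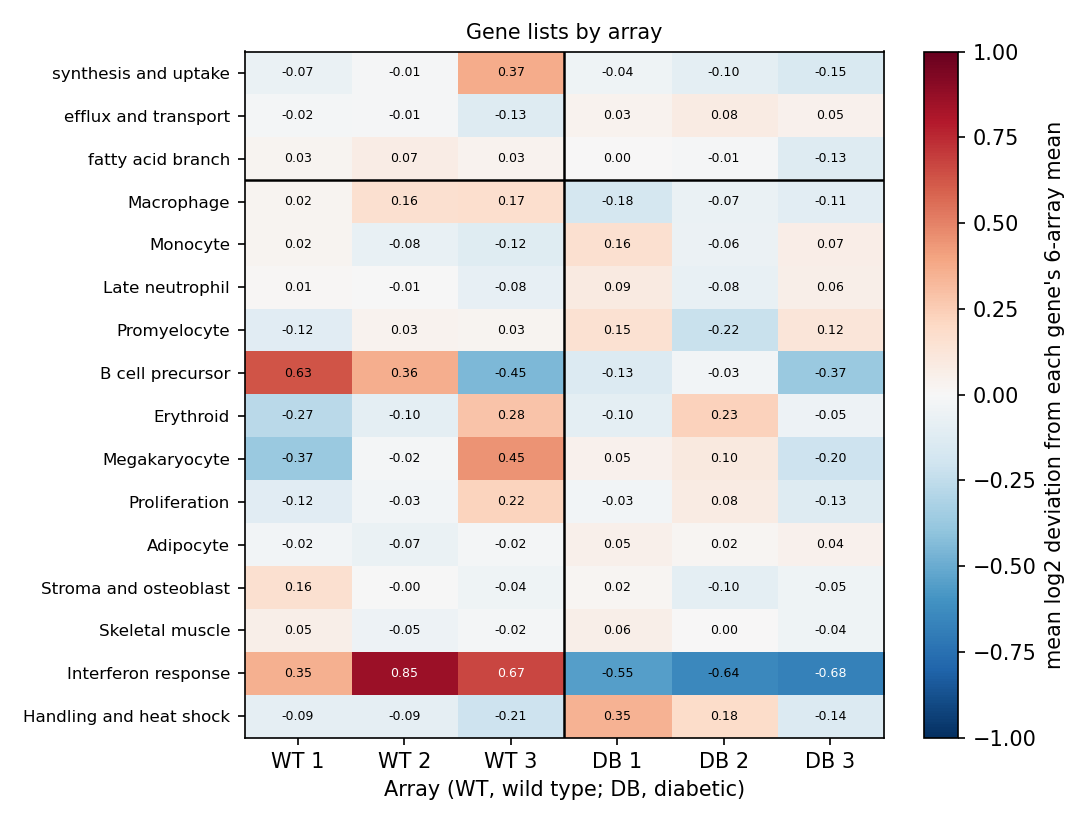
Mean log2 deviation from each gene's 6-array mean for the cholesterol lists, the fatty acid list and the marker lists, by array. On wild type replicate 3 the synthesis list (0.37), erythroid list (0.28), megakaryocyte list (0.45) and proliferation list (0.22) are high and the B cell precursor list (-0.45) is low.

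Cell type lists moved on the same array as the synthesis genes. The B cell precursor list stood at 0.63, 0.36 and -0.45 on wild type replicates 1, 2 and 3, and at -0.13, -0.03 and -0.37 on diabetic replicates 1, 2 and 3. For the erythroid list these deviations were -0.27, -0.10 and 0.28 in wild type and -0.10, 0.23 and -0.05 in diabetic marrow. The proliferation list stood at -0.12, -0.03 and 0.22 in wild type and at -0.03, 0.08 and -0.13 in diabetic marrow, and 12 of its 14 genes were highest on wild type replicate 3. Diabetic replicate 2 was close to wild type replicate 3 in the erythroid list but not in the others. It stood at 0.10 against 0.45 in the megakaryocyte list, 0.08 against 0.22 in the proliferation list and -0.03 against -0.45 in the B cell precursor list. In the synthesis list it stood at -0.10 against 0.37. The list of 10 adipocyte genes stood at -0.02, -0.07 and -0.02 in wild type and at 0.05, 0.02 and 0.04 in diabetic marrow, a shift of 0.07 ± 0.02 (SE), so that its groups were separate like those of the efflux list. Of its genes 7 were higher and 3 lower, and 0 passed the adjusted threshold. Its part in the efflux values was not tested. The list of 7 skeletal muscle genes ran from -0.05 to 0.06 with overlap. The interferon response list, the one with the largest difference between the groups, stood at 0.35, 0.85 and 0.67 in wild type and at -0.55, -0.64 and -0.68 in diabetic marrow, and did not single out wild type replicate 3. The list of handling and heat shock genes stood at -0.09, -0.09 and -0.21 in wild type and at 0.35, 0.18 and -0.14 in diabetic marrow. The part of cell makeup or handling in the synthesis values of wild type replicate 3 was not tested.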

How the data were processed

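The deposited values are log2 signals per probe set, which the authors computed by RMA with Affymetrix software named Expression Console, per the submitters' processing notes and per the labels. RMA equalises the distributions of the arrays, so a shift shared by most genes cannot be seen. Software version, genome build and scan dates: not given in the sources used here. A further allele named in the labels is not reported here. Of 35556 probe sets, 21789 had 1 symbol in the platform annotation, 1621 several and 12146 none there, and RefSeq gene IDs were found for 21698 of the single symbols. The set with the highest mean over the 6 arrays stood for a gene, and genes at or above a mean of 7.52, the 40th percentile of single-symbol sets, were tested.

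The groups were compared two-sided by limma (version 3.58.1, lmFit with eBayes) under R 4.3.3 and p values were adjusted by Benjamini-Hochberg across the 11940 genes. The code recovered known changes in simulated data when tested. List shifts are descriptions with no p: each gene was centred on its own mean over the arrays, members were averaged per array, and the SE is over arrays. Single changes carry limma standard errors, and levels carry SDs. Motifs were matched in RefSeq windows, and plots used matplotlib 3.10.9 (Python 3.11.15). Values per array were given for Srebf2, Insig1, Abca1, Apoe and the 6 members per list with the largest change, and up to 4 other pathway genes per list were named by smallest p. Sqle, Scarb1, the second probe sets, Abcg4, Lpcat3, Srebf1 and the marker genes were chosen with their values in view.

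The members, lists and tests were chosen with earlier results of these data known. Tried as alternatives were testing with no filter on level, or with a cut at percentile 60, quantile normalization once more, centring arrays on their medians, averaging all probe sets of a gene, trend and robust options in eBayes, weights per array, the replicate number as a block, and each array left out. Added after seeing the data were leaving out each array for role and marker lists, the separation of groups without wild type replicate 3, and the gene-by-gene estimate of array weights, because the default estimate stopped before it converged.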

Additional observations from a re-analysis of the deposited data

How the results depend on the processing

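Over 14 alternatives 0 of the 28 genes passed the adjusted threshold of limma, and the synthesis and efflux shifts kept their sign under each of the 9 alternatives that apply to them. Leaving out single arrays moved these over -0.28 to -0.06 and 0.07 to 0.13, and their difference over -0.40 to -0.13, with the value nearest 0 without wild type replicate 3 in all 3 cases. The number of all genes past the threshold, 49, was 168 with array weights, 2 with the replicate block, and 3 to 68 when 1 array was left out (13 without wild type replicate 2, and 5, 3 and 12 without diabetic replicates 1, 2 and 3), and the cause was not tested. The deviations of same-numbered arrays from their group means had r over genes of 0.33, -0.04 and -0.05 for numbers 1, 2 and 3. With 3 arrays per group these values cannot show whether the numbers pair the arrays. The main fit used no pairing, and the replicate block is reported here only.

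When 1 array was left out, some genes near 0 changed sign: Sc5d ran from -0.10 to 0.14, Sqle from -0.45 to 0.13, Insig1 from -0.28 to 0.12, Fdft1 from -0.36 to 0.052, Dhcr7 from -0.077 to 0.085, Stard4 from -0.23 to 0.030, Scarb1 from -0.17 to 0.077 and Pmvk from -0.15 to 0.026. With array weights Hmgcs1 was at 0.012, Insig1 at 0.054, Pmvk at 0.0029, Dhcr7 at 0.074 and Scarb1 at 0.011. Sc5d was at -0.0071 with a further quantile normalization and at -0.0076 with median centring. The 3 arrays per group limit the precision of every value.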

Other observations

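Genes of fatty acid desaturation differed among themselves on wild type replicate 3. They were named after their values were seen. Scd1, the stearoyl-CoA desaturase that SREBP1 and LXR both drive, read 11.59, 11.59 and 10.44 in wild type and 11.32, 11.61 and 11.35 in diabetic marrow, so that wild type replicate 3 was low, as for Abca1 and Abcg1. Fads1 and Fads2, neighbouring desaturases of polyunsaturated fatty acids, had their highest values on that array, 10.87 and 10.81, as did most sterol enzymes. Scd2 read 11.02, 10.94 and 10.98 in wild type and did not set that array apart, with 11.20, 11.20 and 10.56 in diabetic marrow. Elovl6, which elongates palmitate, was the fatty acid gene with the smallest p, at -0.23 ± 0.07, with all diabetic values below the wild type ones and a limma p of 0.513 once adjusted by Benjamini-Hochberg.

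The pump gene Abcg4, which is outside the member list, read 10.06, 10.41 and 10.93 in wild type and 10.33, 10.76 and 10.52 in diabetic marrow. Its highest value was on wild type replicate 3, where its relative Abcg1 had its lowest.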
